A study of Mus musculus with 10 samples.

Results

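Active chromatin was compared between 2 classes of brain macrophage at Msr1, Cd163, Marco and Timd4, 4 genes that encode surface receptors for the uptake of modified lipoproteins, microbes, haemoglobin and dying cells. A region belonged to one of these genes if its midpoint lay inside the gene, or if that gene was the protein-coding gene with the nearest end and this end lay within 100 kb. By this rule 10 of 1320 listed H3K27ac regions belonged to them, 3 of 428 regions listed for MDM and 7 of 892 listed for YSM. The genes were selected on their place in the lists, that is, on the outcome of the authors' differential comparison of H3K27ac, so membership is described and was not tested. The assigned region farthest from its gene lay 24.8 kb from an end of Marco, well inside the limit of 100 kb, and the nearest region that was not assigned lay 496 kb from Timd4.

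The lists come from CUT&Tag, in which an antibody guides a transposase to cut DNA beside a histone mark, in macrophages of the brain parenchyma collected by fluorescence-activated sorting. H3K27ac marks active promoters and enhancers and was profiled in 4 MDM and 4 YSM libraries. The series title gives monocyte-derived macrophages for MDM, while the labels leave YSM unexplained. Both groups came from mice of the genotype Ms4a3Cre:R26-tdTomato and carry the same treatment label, DR-3x, which is not explained. As background, Cre under Ms4a3 is active in granulocyte-monocyte progenitors and switches on the red reporter in their progeny. The labels do not say how the reporter was used in the sort, nor whether libraries came from separate animals. Each list was read as the regions with more H3K27ac in the group it is named for. The lists hold no level, fold or p-value for a library or a region, so no error between libraries and no sequencing depth stands behind the positions given here.

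Scavenger receptors bind polyanionic and modified ligands and take them up by endocytosis. Msr1 (scavenger receptor A, SR-A) and Marco are class A members: trimeric proteins with a collagen-like stalk that bind acetylated or oxidised lipoprotein and bacterial surfaces, and both can end in a scavenger receptor cysteine-rich (SRCR) domain. Cd163 consists of a row of SRCR domains and takes up complexes of haemoglobin and haptoglobin. In the brain it is known as a marker of macrophages at the borders, such as the perivascular space and the meninges. Timd4 (TIM-4) is a tethering receptor for phosphatidylserine on dying cells, known from long-lived resident macrophages in several organs.

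Of the 4 receptors 2 stood in each list. Msr1 had 2 MDM regions and Cd163 had 1, and neither had a YSM region. Marco had 4 YSM regions and Timd4 had 3, and neither had an MDM region. The class A receptors Msr1 and Marco thus stood in opposite lists. A gene with regions of both lists was rare in general, 1 of 599 genes with any region (Slc25a26, a mitochondrial carrier gene), so standing in 1 list is no trait of the receptors. Among all 21887 protein-coding genes, 0.918% had an MDM region and 1.82% had a YSM region by the same rule. Because regions can overlap, those within 5 kb of each other in 1 list were also joined into groups: Msr1 and Cd163 had 1 group each, Timd4 had 2 and Marco had 3.

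**Figure D1:**
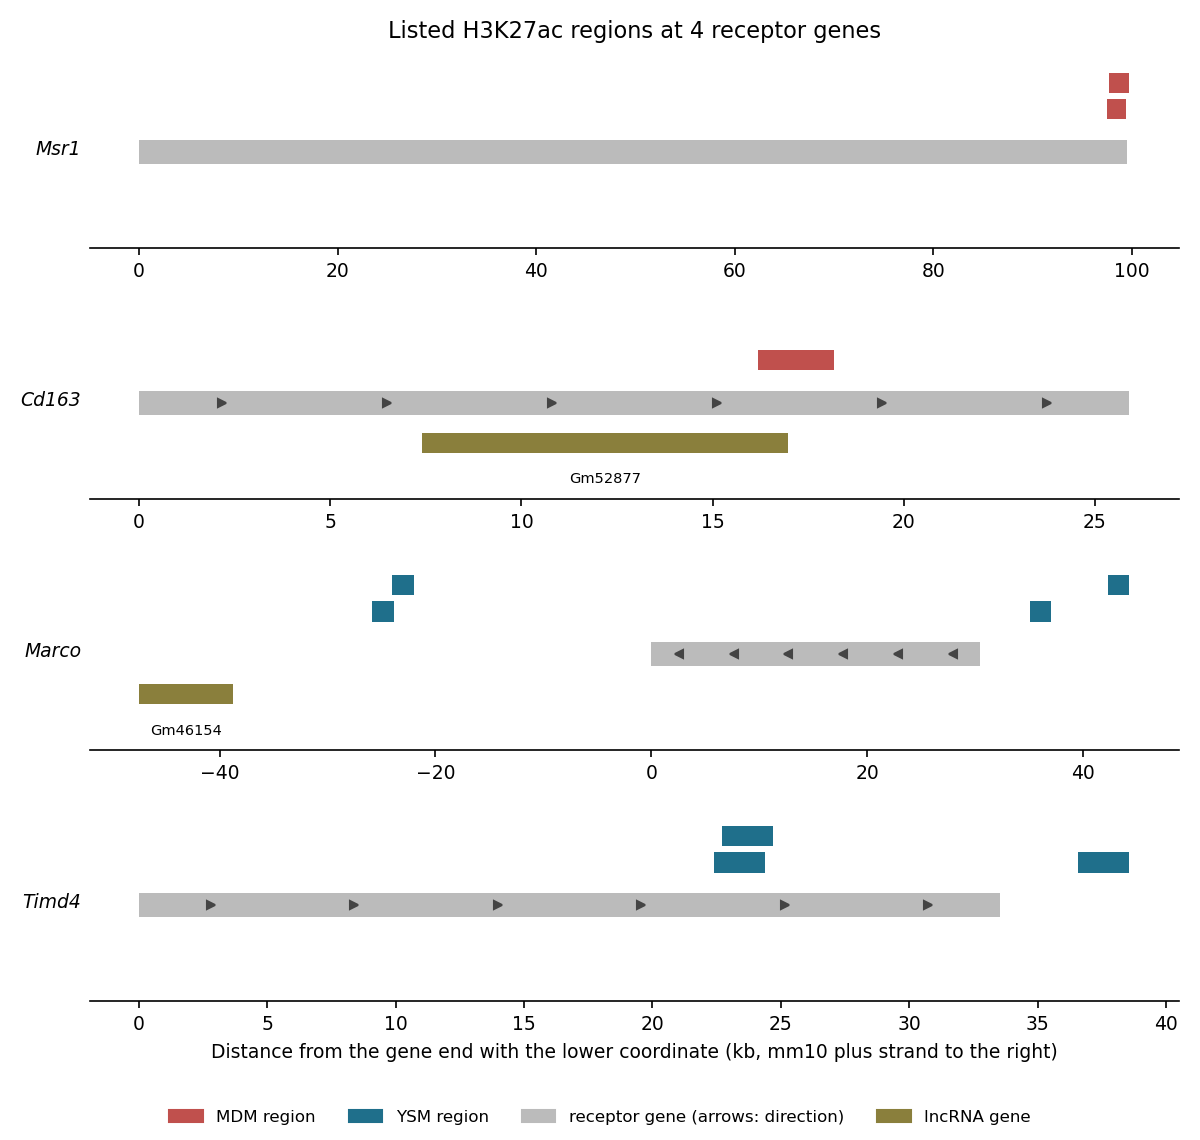
Listed H3K27ac regions drawn to scale at Msr1, Cd163, Marco and Timd4, with distance in kb from the gene end with the lower coordinate; each panel has its own scale, successive regions alternate between an upper and a lower row, and Msr1 has no arrows because its direction was not used. The MDM regions (red) lie inside Msr1 and Cd163, the YSM regions (blue) lie on both sides of Marco and inside and beyond Timd4, and 2 lncRNA genes near the regions are drawn below.

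Sequence windows from RefSeq (GRCm38.p6, the assembly of mm10) were used for the places that the regions are measured from. Each runs from 250 bases before a transcription start to 50 after it, 5' to 3' on the strand of the gene. They are shown because none of the starts of Cd163, Marco and Timd4 lies in a listed region, whereas the start of the lncRNA gene Gm52877 lies in the Cd163 region, so that its window is a stretch of listed chromatin. Capitals mark matches on either strand to GAGGAA, the core preferred by the macrophage factor PU.1, and to the ETS-IRF composite element, where a PU.1-type site adjoins a site of interferon regulatory factors (IRF). The windows are at chr6:124304401-124304700 (plus strand) for Cd163, chr1:120504975-120505274 (minus strand) for Marco, chr11:46810549-46810848 (plus strand) for Timd4 and chr6:124321566-124321865 (minus strand) for Gm52877.
Cd163: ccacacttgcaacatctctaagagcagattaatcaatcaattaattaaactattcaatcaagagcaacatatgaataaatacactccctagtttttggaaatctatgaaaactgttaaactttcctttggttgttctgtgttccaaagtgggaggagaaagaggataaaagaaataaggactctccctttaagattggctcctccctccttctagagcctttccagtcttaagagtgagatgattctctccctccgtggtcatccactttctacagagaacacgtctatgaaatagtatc
Marco: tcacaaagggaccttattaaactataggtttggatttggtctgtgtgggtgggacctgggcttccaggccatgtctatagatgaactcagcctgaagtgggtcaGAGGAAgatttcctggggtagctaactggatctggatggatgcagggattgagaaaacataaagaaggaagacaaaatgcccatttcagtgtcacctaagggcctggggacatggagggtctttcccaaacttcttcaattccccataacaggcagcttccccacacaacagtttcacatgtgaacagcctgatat
Timd4: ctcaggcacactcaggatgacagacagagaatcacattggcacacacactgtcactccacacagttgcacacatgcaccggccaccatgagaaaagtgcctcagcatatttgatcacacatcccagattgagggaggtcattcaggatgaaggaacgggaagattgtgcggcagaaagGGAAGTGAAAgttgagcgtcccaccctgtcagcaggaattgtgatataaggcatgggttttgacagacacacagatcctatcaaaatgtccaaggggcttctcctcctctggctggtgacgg
Gm52877: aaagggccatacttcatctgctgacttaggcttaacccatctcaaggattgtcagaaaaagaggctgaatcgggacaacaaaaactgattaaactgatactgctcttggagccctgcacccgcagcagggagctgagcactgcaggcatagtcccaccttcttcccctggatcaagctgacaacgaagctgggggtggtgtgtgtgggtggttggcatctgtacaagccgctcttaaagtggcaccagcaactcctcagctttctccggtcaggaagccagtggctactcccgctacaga

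The Marco window held 1 match to GAGGAA, whose first base lies 146 bases before the start. GAGGAA occurred in 27.4% of 21230 such windows at protein-coding genes. The Timd4 window held 1 match to the ETS-IRF composite, first base 72 bases before the start, a motif found in 2.53% of windows. The windows of Cd163 and Gm52877 held neither. AP-1 (TGANTCA), C/EBP (TTGCNNAA), RUNX (TGTGGT) and TATA box (TATAAA) matches, searched on both strands, were in none of the 4 windows and in 6.99%, 10.2%, 15.0% and 12.6% of protein-coding windows. GAGGAA and the composite do not overlap in these windows. The motifs were chosen after the sequences had been seen, so the shares describe the windows only. A match says nothing of binding. CpG dinucleotides were few: 2 in the Cd163 window, 0 in Marco, 5 in Timd4 and 6 in Gm52877, with a median of 13.0 over protein-coding windows. GC content was 38.0%, 47.3%, 50.7% and 53.0% in the same order, against a median of 56.3%.

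Msr1 (gene ID 20288) spans 99.5 kb at chr8:39543232-39642750. Its MDM regions lay at chr8:39640687-39642687 and chr8:39640959-39642959, at the end of the gene with the higher coordinate. They shared 1729 bp, and their midpoints were 272 bp apart, so they describe 1 stretch of 2.27 kb. Both midpoints were inside the gene, 1.06 and 0.791 kb from that end. The second region ran 209 bp past the end, and was the only 1 of the 10 regions that held an end of its gene. Of 297 MDM regions assigned to a gene, 45 (15.2%) held an end of it. The rest of the long Msr1 body, the other end included, had no region in either list. The gene table used gives no exons, so exonic and intronic positions were not told apart for any gene.

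Cd163 (gene ID 93671) spans 25.9 kb at chr6:124304636-124330529 on the plus strand. Its MDM region, chr6:124320819-124322819, lay wholly inside the gene. The midpoint was 17.2 kb downstream of the transcription start and 8.71 kb from the far end, 66.4% of the way through the gene. The same region held the start of Gm52877 (gene ID 115490372), a lncRNA gene of 9.57 kb on the opposite strand at chr6:124312044-124321615. That start was 204 bp from the midpoint of the region, closer than either end of Cd163. The position therefore does not tell whether the listed signal belongs to Cd163 or to Gm52877. Cd163 was the only gene with a region among the 11 border-associated macrophage markers (Cd163, Mrc1, Lyve1, F13a1, Pf4, Cbr2, Ms4a7, Stab1, Siglec1, Folr2 and Clec12a). Cd163 was itself selected for having a region. Of the 10 other markers 0 had one in either list. Of all genes 0.918% had an MDM region and 1.82% a YSM region, and at these shares 0 is the likely count. The share of border-associated cells in the sort was not tested.

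Marco (gene ID 17167) spans 30.5 kb at chr1:120474538-120505024 on the minus strand, and its YSM regions flanked it. Upstream of the start lay chr1:120509597-120511597, with its midpoint 5.57 kb away, and chr1:120516805-120518805, 12.8 kb away. They were separated by a gap of 5.21 kb. Downstream of the gene lay chr1:120450533-120452533 and chr1:120448693-120450693, with midpoints 23.0 and 24.8 kb past its 3' end. These shared 161 bp. No region lay inside the gene, and the set spanned 70.1 kb, of which regions covered 7.84 kb. Regions on both sides of a gene need at least 2 regions, which 143 YSM genes and 67 MDM genes had. Of these 143 genes Marco was the only 1 with regions on both sides and none inside. In the MDM list 1 of 67 had that arrangement, the olfactory receptor gene Olfr985, named after its value was seen. The downstream pair was closer to the lncRNA gene Gm46154 (chr1:120427074-120435740) than to Marco, 15.8 and 14.0 kb from it. The next protein-coding gene was farther for every region: En1, a homeobox gene of midbrain patterning, was 91.9 and 84.7 kb from the upstream pair, and C1ql2, a gene of the C1q-like family, was 108 and 107 kb from the downstream pair.

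Timd4 (gene ID 276891) spans 33.5 kb at chr11:46810786-46844333 on the plus strand. Its YSM regions lay in the far part of the gene and beyond it. The regions chr11:46833176-46835176 and chr11:46833478-46835478 shared 1699 bp and lay inside the gene, with midpoints 23.4 and 23.7 kb downstream of the start, 69.7% and 70.6% of the way through. The remaining region, chr11:46847356-46849356, lay 4.02 kb past the 3' end and 37.6 kb from the start. A gap of 11.9 kb separated it from the pair. Regions inside the gene and on 1 side of it were found at 31 of the 143 YSM genes with 2 or more regions (21.7%), Timd4 included. In the genome Timd4 sits beside its relatives Havcr1 (TIM-1), 31.2 kb away, and Timd2 (TIM-2), with Havcr2 (TIM-3) farther off. None of these had an assigned region. The nearest YSM region was 54.6 kb from Havcr1, and it was a Timd4 region. The relatives were chosen for their family and position, outside the rule for named genes.

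For Cd163, Marco and Timd4, the receptors with a start in the windows used, no listed region covered it. Their distances from start to midpoint ran from 5.57 kb at Marco to 55.3 kb, also at Marco. Msr1 has no start in those windows, so whether its regions cover the start was not determined. Over all assigned regions with a known start, the median distance was 33.4 kb for 239 MDM regions and 28.7 kb for 537 YSM regions, and 15.1% and 13.8% had their midpoint within 1 kb of a start. All 3 MDM regions of the receptors lay inside their gene. Of their 7 YSM regions 2 did, both at Timd4. In the whole lists 54.2% of 297 assigned MDM regions and 67.0% of 688 assigned YSM regions lay inside the assigned gene. The receptors' regions thus leaned the opposite way to the lists, over 2 genes on each side, and this was not tested. The counts take overlapping regions singly: the 3 MDM regions formed 2 groups and the 7 YSM regions 5. On the YSM side 4 of the regions outside a gene were those of Marco alone.

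**Figure D2:**
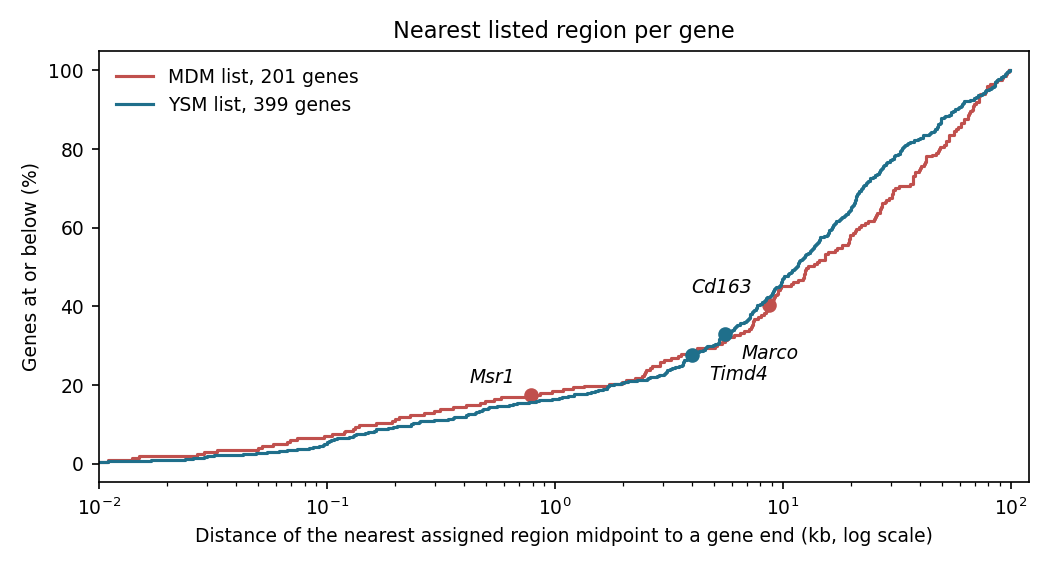
Share of genes (y axis, %) whose nearest assigned region midpoint lies at or below a given distance from a gene end (x axis, kb, log scale), for 201 genes of the MDM list and 399 of the YSM list, with the 4 receptor genes as points. Msr1 sits at 0.791 kb and the other receptors between 4.02 and 8.71 kb, all below the medians of 13.0 kb (MDM) and 11.5 kb (YSM). Genes were not matched for length or number of regions.

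The nearest region of each receptor was closer to a gene end than the median for its list. For Cd163 this follows from its length of 25.9 kb: any place inside it lies nearer to an end than the MDM median of 13.0 kb. Marco and Timd4 had 4 and 3 regions, which gives more chances of a near one. Genes were not matched for length or number of regions, so whether the closeness is a trait of the receptors was not tested. In the MDM list 34 of 201 genes had a nearer region than Msr1 at 0.791 kb, and 80 had a nearer region than Cd163 at 8.71 kb. In the YSM list 131 of 399 genes had a nearer region than Marco at 5.57 kb, and 109 had a nearer region than Timd4 at 4.02 kb. By number of regions, Marco stood high in its list: 35 of 399 YSM genes (8.77%) had 4 or more. As Timd4 did, 69 (17.3%) had 3 or more. These counts take overlapping regions singly. Joined, the regions of Marco formed 3 groups and those of Timd4 formed 2, and genes were not ranked by groups. Of 201 MDM genes 67 (33.3%) had 2 or more regions, as Msr1 did, and 134 had 1, as Cd163 did.

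**Figure D3:**
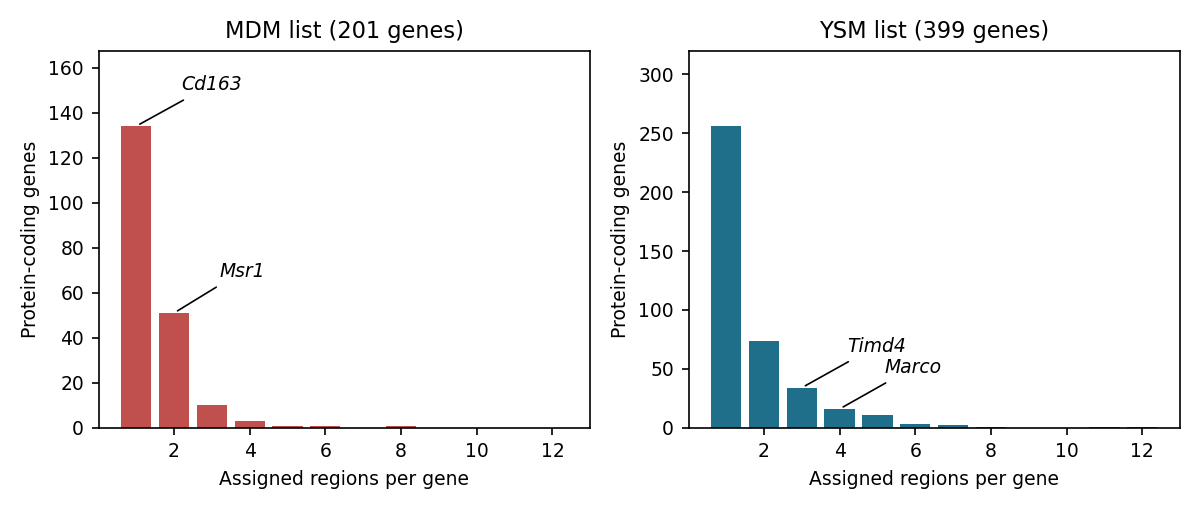
Number of protein-coding genes (y axis) by assigned regions per gene (x axis) in the MDM list (left, 201 genes) and the YSM list (right, 399 genes), with the receptor genes marked. Cd163 and Msr1 stand at 1 and 2 regions in the MDM list, Timd4 and Marco at 3 and 4 in the YSM list.

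The distance to regions of the other list differed widely between the receptors, from 6.31 Mb at Marco to 496 kb at Timd4. Around Msr1 the MDM pair was alone: no other region of either list lay within 1000 kb, the nearest YSM region was 6.23 Mb away (at Pdlim3) and the next MDM region 7.49 Mb away (at Enpp6). The neighbouring protein-coding genes were Tusc3, 376 kb away, and Fgf20, 636 kb away. Around Cd163 the nearest YSM region was 0.807 Mb away, inside the nucleolar protein gene Nop2 (chr6:125136405-125138405). The neighbours of Cd163 were Vmn2r27, a vomeronasal receptor gene, and Pex5, a peroxisomal import receptor gene. Around Marco, 3 more YSM regions lay 936 to 942 kb away inside Ccdc93, and the nearest MDM region was 6.31 Mb away, at Nckap5.

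Timd4 was the receptor with opposite regions nearest. The MDM region chr11:46313827-46315827, beside the actin regulator gene Cyfip2, was 496 kb from the gene. Within 1000 kb lay 7 MDM regions, all on the side of lower coordinates: 5 inside the metalloprotease gene Adam19 and 1 each nearest to Fndc9 and Cyfip2. Havcr2 lay between, 140 kb from the Cyfip2 region and 353 kb from the nearest Timd4 region. On the other side the neighbour was Sgcd, a sarcoglycan gene, 127 kb from Timd4. None of the genes adjoining the 4 receptors had an assigned region in either list.

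**Figure D4:**
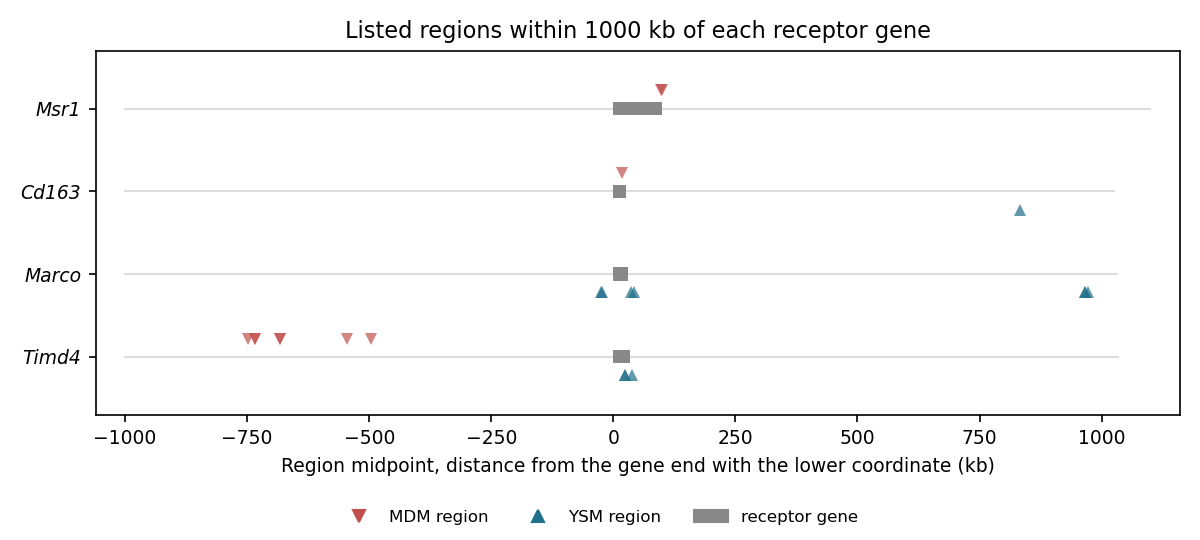
Midpoints of all listed regions within 1000 kb of each receptor gene, in kb from the gene end with the lower coordinate; MDM regions are red triangles above the line and YSM regions blue triangles below it. Timd4 has 7 MDM regions between 496 and 749 kb away, Marco 3 further YSM regions, Cd163 1 YSM region, and Msr1 no other region.

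The chosen lists of uptake genes held no other gene with a region. These 8 lists of class A scavenger receptors, SRCR proteins, other scavenger receptors, phosphatidylserine receptors with bridging proteins, Fc and complement receptors, lectin and sialic acid receptors, the TREM family, and engulfment machinery held 105 genes with a position. Besides the 4 receptors, 0 of 101 had an assigned region in either list, beside 0.918% and 1.82% of all genes with an MDM or a YSM region. The 4 were selected for having regions and are left out of the 101, and the lists were chosen with earlier results known. The count of 0 therefore gives no estimate of a share, and no depletion can be read from it. Those without a region include the class A relatives Scara3, Scara5 and Colec12, the mannose receptor gene Mrc1 and the scavenger receptor gene Stab1. The lipid receptor genes Cd36 and Trem2 and the apoptotic-cell receptor kinases Mertk and Axl had none either. The lists do not take in every gene of uptake. Among genes outside them, picked after their values were seen, MDM regions were assigned to the sialic acid receptor gene Siglece (1 region, 5.57 kb from a gene end), to Cd93 (1 region, 0.0150 kb) and to the SIRP-beta family genes Sirpb1b (1 region, 0.0140 kb) and Sirpb1c (1 region, 0.133 kb). Absence from the authors' lists does not show that H3K27ac was equal, since regions that the authors tested and did not list are unknown. Regions were assigned to 0 of 10 genes for haem and iron handling, Hmox1 (haem oxygenase) included, and to 0 of 13 for lipid droplet and cholesterol handling. At 0.918% and 1.82% of all genes, 0 is the likely count in lists this short. These lists too are incomplete: the apolipoprotein gene Apoc4, outside them and picked after its value was seen, had 1 MDM region.

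Among markers of other cells, most had no region: 4 of 24 neuron, oligodendrocyte and astrocyte markers, 1 of 10 microglia and 1 of 8 neutrophil markers had any. No region was assigned to any of the monocyte (9 genes), T and NK cell (8), B cell (6) and endothelial (8) markers. Of 10 microglia markers 1 had YSM regions, Sall1, the transcription factor of microglia identity, with 5. Of 8 neutrophil markers 1 had an MDM region, Retnlg, at 7.39 kb. YSM regions were assigned to the oligodendrocyte myelin genes Mbp (1 region) and Mog (1 region), 2 of 8 markers. The astrocyte glutamate transporter gene Slc1a3 had 6, 1 of 8 markers, and the neuronal synaptic gene Snap25 had 2, 1 of 8. Joined within 5 kb, those at Slc1a3 formed 4 groups and those at Snap25 formed 1. The regions of Mog and Snap25 lay outside the gene, the nearest at 5.47 kb and 33.4 kb. Together 4 of the 24 neuron, oligodendrocyte and astrocyte markers (16.7%) had YSM regions, 10 in all counted singly, and 0 had MDM regions. Of all genes 1.82% had a YSM region and 0.918% an MDM region. At the MDM share, 0 is the likely count in lists this short. Genes were not matched for length. The part of neurons, oligodendrocytes and astrocytes in the YSM regions at Marco and Timd4 was not tested.

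Genes arranged most like each receptor were taken as those with the same list, number of regions and side of the gene end, ordered by the distance of the nearest region over 1 value per gene. For Msr1 these were Hs3st1, a heparan sulfate sulfotransferase gene (0.978 kb), Adgrl2, a latrophilin gene (1.08 kb), and the homeobox gene Hoxb4 (0.497 kb), of 26 candidates. For Cd163 they were Bbs2 (8.88 kb), the cofilin phosphatase gene Ssh1 (8.31 kb) and Fyb2 (9.15 kb), of 70. Marco had 5 candidates and none close: Csmd3 (0.408 kb), Prickle1 (0.204 kb) and Prox1 (0.0260 kb) all had a region at a gene end. Timd4 had 9 candidates, and the closest were Adamts1 (0.0970 kb), Tppp (0.0170 kb) and Ppp1r14bl (13.2 kb). The likeness is one of position only.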

How the data were processed

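H3K27ac regions were taken from 2 lists that the authors deposited, named for MDM, YSM and a DESeq2 comparison. Regions hold a position (BED) and a score; the meaning of the score, whole numbers in the deposited lists, is not stated. Trimmomatic 0.39, HOMER, Bowtie2 2.2.5 and Picard were among the tools and mm10 was the build, per the submitters' processing notes, which assign them no step. How the comparison was scaled, cut off and signed is not given in the sources used here. Of 10 libraries, the 2 named for H3K27me3 were not analysed here.

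Positions are printed from 1. Genes (21887 protein-coding, without mitochondrial ones) came from a RefSeq table of GRCm38.p6, and starts and strands from its promoter windows, which held 3 of the 4 receptors. Regions were assigned by midpoint with Python 3.11.15 and pandas 2.3.3, and the assignment was tested on simulated data. The members and gene lists were chosen with earlier results of these data known. Of 206 symbols in 20 lists, 2 (Scart2 and Trac) matched no protein-coding gene. Named genes were the members, other list genes with a region, the adjoining genes and the 3 most alike in position; others named were chosen after their values were seen. No test was run, since the lists chose the members. Alternatives were other distance limits (10 kb, 50 kb, none), genes of all types, gene bodies, region edges, joined groups and windows of 100 and 1000 kb beside 500 kb.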

Additional observations from a re-analysis of the deposited data

How the results depend on the processing

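No paired analysis was possible because values per library were not used here, which also kept any library from being left out. Depth is unknown. No setting moved a receptor to the other list, but this was fixed beforehand, as no setting changes the list of a region. The nearest regions of the other list, 496 kb or more away, had other protein-coding genes nearest. With genes of all types the Cd163 count fell from 1 to 0 (to Gm52877) and the Marco count from 4 to 2 (the downstream pair to Gm46154), by construction, since more genes compete. With a limit of 10 kb Marco kept 1 region. With joined groups Msr1 had 1 in place of 2. The count of other receptor and engulfment genes was 0 in both lists under every assignment tried. Region edges and joined groups changed the nearest distances by no more than 1 kb. Counts in a window depended on its size: YSM regions near Cd163 went from 0 within 500 kb to 1 within 1000 kb, YSM regions near Marco from 4 to 7, and MDM regions near Timd4 from 1 to 7, or 0 within 100 kb. The other 76 of 84 recomputed values stayed within 1.5 times, or 1 kb, of those reported. Many of these were counts of 0 in both settings, which a tighter distance limit could not have raised. The distances from region edges were also bound to stay within 1 kb.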

Other observations

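The lists also give each region a score and a name that ends in a whole number, both of unstated meaning. The score was 1 at 9 of the 10 receptor regions. The exception was the Marco region nearest to the start, with a score of 10, one of 21 YSM regions above 1. The name number was 4 at the Cd163 region and 1 at both Msr1 regions, where 43.2% and 17.5% of MDM regions had those numbers. At Marco it was 2 for the regions 12.8 and 24.8 kb from a gene end and 1 for the others. At Timd4 it was 2 for the region past the gene and 1 for the overlapping pair. In the YSM list 39.0% of regions had 2 and 30.7% had 1.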
